A study of Mus musculus with 17 samples.

Results

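The genes of major histocompatibility complex (MHC) class I presentation and of the immunoproteasome were followed in Kupffer cells (KCs), the macrophages that reside in the liver, sorted from mice. The 10 genes are *H2-K1*, *H2-D1*, *B2m*, *Tap1*, *Tap2*, *Tapbp*, *Psmb8*, *Psmb9*, *Psmb10* and *Nlrc5*, and they were taken by symbol from the 25124 genes that each of 3 deposited tables lists. All 10 were found in each table and all passed the filter on low values. The study asked how a liver tumour changes KCs and what the loss of *Id3*, which encodes a nuclear helix-loop-helix protein, does to them. A total of 17 samples were available. TIM4+CD206+ KCs and TIM4+CD206hi KCs were each sorted from 3 untreated tumour-free livers and from 3 livers taken 2 weeks after tumour cells were injected into the portal vein. TIM4 and CD206 are surface proteins, and the study treats the TIM4+CD206hi KCs as a minor population. The remaining samples were KCs of untreated mice without tumour, 3 of the genotype *Id3f/f* and 2 of the genotype *Clec4fCreId3f/f*. Both of these genotypes carry the floxed *Id3* allele on both chromosomes, and the second also carries Cre under the control of *Clec4f*, a KC gene. The ages and sexes of the mice are not given in the labels.

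Class I molecules display peptides from proteins made inside the cell to CD8 T cells, and their absence can be sensed by NK cells. Proteins are cut by the proteasome, whose standard catalytic subunits are replaced by *Psmb8*, *Psmb9* and *Psmb10* products when the immunoproteasome is assembled. The transporter made of the *Tap1* and *Tap2* products brings the peptides into the endoplasmic reticulum, where tapasin, the *Tapbp* product, helps to load them. The loaded molecule is a heavy chain, encoded in these mice by *H2-K1* and *H2-D1*, held by β2-microglobulin, the *B2m* product. *Nlrc5* encodes a transactivator of most of these genes, and interferons raise them.

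The values are on a log2 scale, and a difference of 1 is a doubling. They were transformed separately for each table, so that no test was made across tables, and differences of genes with low values are understated. Samples of a group are labelled as replicates without naming their mice, and p-values measure the spread between these samples. In bulk RNA, a smaller share of cells that express a gene and less of its RNA per cell cannot be told apart.

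The sorted samples held the markers of KCs at high values, with *Clec4f* between 16.11 and 19.65 in the 17 samples. *Id3*, the targeted gene, stood at 12.58, 12.46 and 12.82 in the *Id3f/f* samples and at 9.83 and 9.82 in the *Clec4fCreId3f/f* samples. *Clec4f* itself was lower in the latter, with a difference of −1.52 on the log2 scale. The summed linear value of 7 KC markers was 724000 to 774000 in *Id3f/f* and 771000 to 785000 in *Clec4fCreId3f/f* samples. Of the 7, 3 were higher and 1 was lower at an adjusted p under 0.05 (limma). *Xist* differed by 3.44 and *Ddx3y* by −2.44 in *Clec4fCreId3f/f* KCs, so that sex and genotype cannot be told apart in this comparison. In TIM4+CD206+ KCs the summed linear value of 7 KC markers went from 1480000 to 2020000 without tumour to 1060000 to 1130000 with it, and 3 of the 7 were lower at an adjusted p under 0.05 (limma), *Timd4*, which encodes TIM4, among them (−0.75, adjusted p = 0.0463). In TIM4+CD206hi KCs this sum went from 781000 to 1170000 to 714000 to 821000 and 0 of 7 passed, with *Timd4* at −0.64 and *Clec4f* at −0.58 (adjusted p = 0.149 and 0.119). Markers of other cells were present in all groups, and some of them moved with tumour. Dendritic cell sums were 1890 to 2760 without and 1840 to 2430 with tumour in TIM4+CD206+ samples. In TIM4+CD206hi samples they were 1190 to 3200 and 1730 to 1950, and 0 of 5 passed in either population. T or NK cell sums were 2120 to 4440 without and 2050 to 2260 with tumour in TIM4+CD206+ samples. In TIM4+CD206hi samples these sums were 1890 to 2380 and 1300 to 1410. Of 6 T or NK cell markers tested, 0 passed in either. Hepatocyte markers went from 15800 to 21500 to 4790 to 6830 in TIM4+CD206+ and from 14100 to 21100 to 4170 to 5830 in TIM4+CD206hi samples, with 5 and 4 of 5 lower. B cell markers went from 8680 to 9200 to 4080 to 4650 and from 3420 to 4010 to 1870 to 2020, and neutrophil markers went from 3320 to 9160 to 21800 to 25200 and from 1510 to 6440 to 8310 to 13300, with 2 and 3 of 5 higher. The part of these markers in the members' values was not tested. The summed linear value of 5 epithelial tumour markers rose from 1410 to 2980 in tumour-free to 28700 to 33700 in tumour-bearing TIM4+CD206+ samples. In TIM4+CD206hi samples it went from 1180 to 1920 to 35000 to 38700, with *Cldn4* near 0 in that table.

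Of the 10 genes, 7 lie in the MHC region, taken here as the stretch from *Tapbp* to *H2-M2* (GRCm38, chr17:33915899-37483552). *B2m* lies on chromosome 2, and *Psmb10* and *Nlrc5* lie on chromosome 8. The sequences of 250 bases upstream of the RefSeq transcript start (GRCm38.p6) are shown for the genes whose values are compared most below, because class I genes share known promoter elements. RefSeq windows were found for 8 of the 10 genes, and *Tap2* and *Nlrc5* had no entry. Capitals mark matches, on either strand, to GGGATTCCC (the κB element of class I promoters), GAANNGAAA and GAAANNGAA (interferon response elements), TTCNNNGAA (a gamma-activated site), TGACG (the core of the X2 or CRE-like element) and CCAAT (the Y element). A match to GAANNGAAA can overlap a match to GAAANNGAA by several letters. The windows were those of *H2-K1* (chr17:34000348-34000597, minus strand), *H2-D1* (chr17:35262844-35263093, plus strand), *B2m* (chr2:122147437-122147686, plus strand) and *Tap1* (chr17:34187306-34187555, plus strand).
H2-K1: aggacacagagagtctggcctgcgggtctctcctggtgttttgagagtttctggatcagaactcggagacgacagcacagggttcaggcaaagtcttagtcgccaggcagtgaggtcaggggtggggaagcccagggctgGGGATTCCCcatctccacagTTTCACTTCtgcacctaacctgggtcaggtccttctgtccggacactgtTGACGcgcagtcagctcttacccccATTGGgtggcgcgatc
H2-D1: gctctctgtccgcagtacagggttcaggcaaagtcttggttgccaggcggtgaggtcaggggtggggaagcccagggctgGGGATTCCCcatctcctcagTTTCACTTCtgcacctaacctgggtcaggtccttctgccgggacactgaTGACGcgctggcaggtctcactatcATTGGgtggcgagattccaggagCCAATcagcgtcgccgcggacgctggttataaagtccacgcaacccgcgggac
B2m: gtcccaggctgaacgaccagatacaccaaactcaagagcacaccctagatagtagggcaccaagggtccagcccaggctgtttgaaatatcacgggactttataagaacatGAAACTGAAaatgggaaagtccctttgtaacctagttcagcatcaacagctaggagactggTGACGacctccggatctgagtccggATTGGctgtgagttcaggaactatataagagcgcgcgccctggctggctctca
Tap1: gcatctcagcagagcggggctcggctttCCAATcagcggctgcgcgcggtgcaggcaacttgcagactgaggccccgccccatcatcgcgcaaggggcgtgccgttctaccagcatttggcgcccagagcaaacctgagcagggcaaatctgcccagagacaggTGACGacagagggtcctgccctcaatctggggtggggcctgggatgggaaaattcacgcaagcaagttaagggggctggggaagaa

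The *H2-K1* and *H2-D1* windows share an identical run of 47 bases that holds the κB element. GGGATTCCC was present in 84 of the 27025 promoters searched (0.311%), and *H2-K1* and *H2-D1* were the members among them. GAANNGAAA was found in the same pair of members and in 6.34% of all promoters, GAAANNGAA in *B2m* and in 7.16%, and TTCNNNGAA in *Psmb8* and in 7.18%. TGACG was found in 5 of the 8 windows (*H2-K1*, *H2-D1*, *B2m*, *Tap1* and *Psmb9*) and in 17.9% of all promoters, and CCAAT in 6 of the 8, these same genes and *Tapbp*, and in 34.5%. The starts of *Tap1* and *Psmb9* are 225 bases apart and point away from each other, so that their windows share 225 of 250 bases and each match in the shared part counts for both. Id proteins bind E proteins, which recognise E-boxes. The E-box letters CAGGTG were found in the shared *Tap1* and *Psmb9* window, overlapping TGACG there, and in 17.1% of all promoters. The ETS letters CCGGAAG were found in 7.05% of promoters and in none of the 8 windows. These matches describe letters and not binding.

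The sequence of the transcripts limits how well reads could be assigned. Of all stretches of 100 bases in the *H2-D1* transcript, 4.64% occur exactly in another gene of the annotation GENCODE M21. The value for *Tapbp* was 0.107%. No such stretch was found for the other 8 members. Other class I genes shared more, with 10.8% for *H2-Q6*, 14.2% for *H2-T22* and 16.4% for *H2-Q7*. Some listed rows follow another row closely. *H2-L* stood 0.53 to 0.59 below *H2-D1* in every TIM4+CD206+ sample. It stood 0.52 to 0.71 below in TIM4+CD206hi samples and 0.53 to 0.55 below in the *Id3* table. *H2-Q9* differed from *H2-Q7* by less than 0.01 in all tables. Neither *H2-L* nor *H2-Q9* is counted as a gene of its own. Neither has an entry in GENCODE M21, so the shares above leave out what *H2-D1* and *H2-Q7* have in common with them. The library kit does not mark strand. In GENCODE M21 the *Psmb9* gene, on the minus strand, begins at position 34187764, upstream of its RefSeq start at 34187330. By that annotation *Tap1* and *Psmb9* share 212 exonic bases on opposite strands (5.79% of the exonic bases of *Psmb9*). Reads from these bases cannot be told apart. Antisense transcripts also cover 24.9% of the exonic bases of *Tapbp* (*Gm19412*), 14.7% of *Psmb8* (*Gm20496*) and 14.1% of *Tap2* (*Gm15821*).

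**Figure D1:**
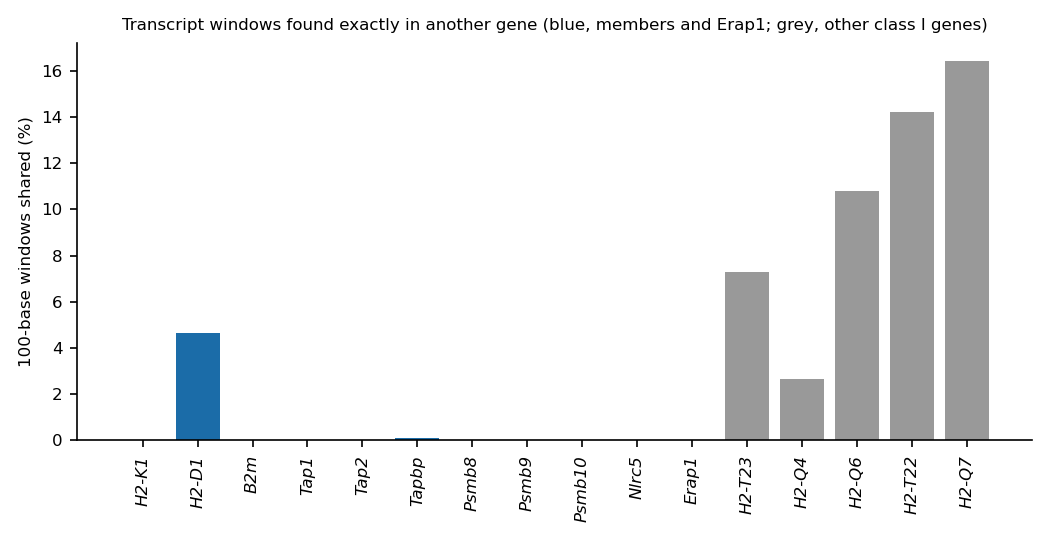
Share of all 100-base windows of the longest coding transcript that occur exactly in a transcript of another gene, in percent, for the 10 members and *Erap1* (blue) and for 5 other class I genes (grey). *H2-D1* reaches 4.64% and *H2-Q7* 16.4%, while *H2-K1*, *B2m*, *Tap1* and *Tap2* are at 0. The genes compared are those of GENCODE M21, which has no entry for *H2-L* or *H2-Q9*.

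Per kilobase of transcript, on the linear scale, the order of levels was nearly the same in all 6 groups. *B2m* stood first in each group, with a mean level of 122000 ± 20200 per kb (SD, n = 3) in tumour-free TIM4+CD206+ KCs, followed by *H2-D1* with 94400 ± 24900 and *H2-K1* with 63800 ± 16400. The ranges of *B2m* and *H2-D1* overlapped in that group. The immunoproteasome genes and *Tapbp* came next, with mean levels of 10900 to 17700 per kb, and their ranges overlapped. *Tap1* and *Tap2* followed with 3820 ± 1150 and 2750 ± 756, again with overlapping ranges. *Nlrc5*, the transactivator, was the lowest member with 174 ± 89.6 per kb, below *Erap1* (230 ± 43.9), an endoplasmic reticulum aminopeptidase that trims peptides and is no member. In *Id3f/f* KCs the first places did not overlap, as *B2m* spanned 255000 to 276000 per kb, *H2-D1* 85600 to 88900 and *H2-K1* 31400 to 38400. *Nlrc5* spanned 31.7 to 33.6 there.

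In TIM4+CD206+ KCs, all 10 genes had a lower mean in tumour-bearing livers, and none of the differences passed an adjusted p of 0.05 (limma, Benjamini-Hochberg over 13233 genes, while 5 of 10 had an unadjusted p under 0.05). Of all tested genes, 3.54% passed in either direction, 0.998% as lower and 2.55% as higher. Below 0 lay 47.9% of all differences, and 17.2% had an unadjusted p under 0.05. The median difference of the members was −0.44 on the log2 scale, against 0.017 for all tested genes. For 3 members, *Tap1*, *Tap2* and *Tapbp*, every tumour-bearing sample lay below every tumour-free one, as it did for 10.5% of all genes, and for 12.9% it lay above.

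The subunits of the presented molecule were the most abundant members. The level of *H2-K1* was 16.29, 16.56 and 17.02 in the tumour-free samples and 16.01, 16.31 and 16.05 in the tumour-bearing ones. The difference was −0.50 ± 0.21 (SE, adjusted p = 0.283), and the highest tumour-bearing sample lay just above the lowest tumour-free one. *H2-D1* values were 17.08, 17.85 and 17.74 without and 17.03, 17.57 and 17.06 with tumour, a difference of −0.34 ± 0.26 (SE, adjusted p = 0.575). *B2m* values were 16.80, 16.38 and 16.83 and 16.50, 16.18 and 16.42, a difference of −0.31 ± 0.19 (SE, adjusted p = 0.479). For both genes 1 tumour-free sample fell among the tumour-bearing ones, the first for *H2-D1* and the second for *B2m*.

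The transporter and tapasin gave the groups that did not overlap. *Tap1* stood at 13.36, 13.02 and 13.87 in tumour-free and at 12.40, 12.96 and 12.71 in tumour-bearing livers, a difference of −0.73 ± 0.24 (SE, adjusted p = 0.173) with a 95% interval of −1.29 to −0.17. *Tap2* stood at 13.55, 12.73 and 13.23 and 12.63, 12.51 and 12.54, a difference of −0.61 ± 0.21 (SE, adjusted p = 0.191). The tumour-bearing samples were close together for *Tap2*, and the spread came from the tumour-free ones. *Tapbp* values were 14.81, 14.85 and 15.16 and 14.53, 14.55 and 14.63, a difference of −0.38 ± 0.16 (SE, adjusted p = 0.268).

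The immunoproteasome subunits shared a pattern in which the second tumour-free sample was lowest of all. *Psmb9* stood at 14.50, 13.28 and 14.35 without and at 13.36, 13.40 and 13.58 with tumour (−0.60 ± 0.30 (SE, adjusted p = 0.368)). *Psmb8* stood at 14.95, 14.26 and 15.10 and 14.35, 14.48 and 14.49 (−0.33 ± 0.23 (SE, adjusted p = 0.533)), and *Psmb10* at 14.48, 13.50 and 14.30 and 13.78, 13.77 and 13.92 (−0.27 ± 0.25 (SE, adjusted p = 0.665)). In each of them the other tumour-free samples lay above all tumour-bearing samples.

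*Nlrc5* had the largest difference of the members. Its values were 10.87, 9.13 and 10.58 in tumour-free and 9.48, 8.55 and 8.91 in tumour-bearing livers, a difference of −1.22 ± 0.45 (SE, adjusted p = 0.213) with a 95% interval of −2.25 to −0.18. The second tumour-free sample again fell among the tumour-bearing ones. Samples with the same replicate number deviated together in this table, and a fit blocked by that number gave *Nlrc5* an adjusted p of 0.00896, which made it the single member that passed. With the block, 1026 genes passed in all, against 469 without it. *Erap1* differed by −0.07 ± 0.22 (adjusted p = 0.932).

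The labels do not say whether samples of the same number belong together, and they are called pairs here. Within pairs, 7 of the 10 members were lower with tumour in 3 of 3 pairs. The share of all genes that were lower in every pair was not counted, while 47.9% of all differences of means were below 0. For *B2m* the differences within pairs 1, 2 and 3 were −0.31, −0.20 and −0.41, and for *Nlrc5* they were −1.39, −0.58 and −1.67. *Psmb8*, *Psmb9* and *Psmb10* were lower in 2 of 3 pairs and higher in the second (0.22, 0.12 and 0.27). In the fit without the block, the calls depended on the second tumour-free sample. Without it, 6 members were lower at an adjusted p under 0.05 (*Nlrc5*, *Psmb8*, *Psmb9*, *Psmb10*, *Tap1* and *Tap2*), and *Nlrc5* differed by −1.75 (adjusted p = 0.0119), while 1018 genes passed in all. Without any other sample, 0 members passed. That sample also had the lowest summed markers of monocytes (10900, against 28700 and 23200 in the other tumour-free samples), of endothelial cells (15800, against 27100 and 23400) and of T or NK cells (2120, against 4440 and 3600). The KC (1480000), B cell (8680), hepatocyte (15800), epithelial tumour (1410) and neutrophil (3320) sums were also lowest there among the tumour-free samples. The dendritic cell sum (2500) was not. With tumour the monocyte sum was 34800 to 36300 and the endothelial sum 11900 to 15100. The part of these markers in the members' values was not tested.

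**Figure D2:**
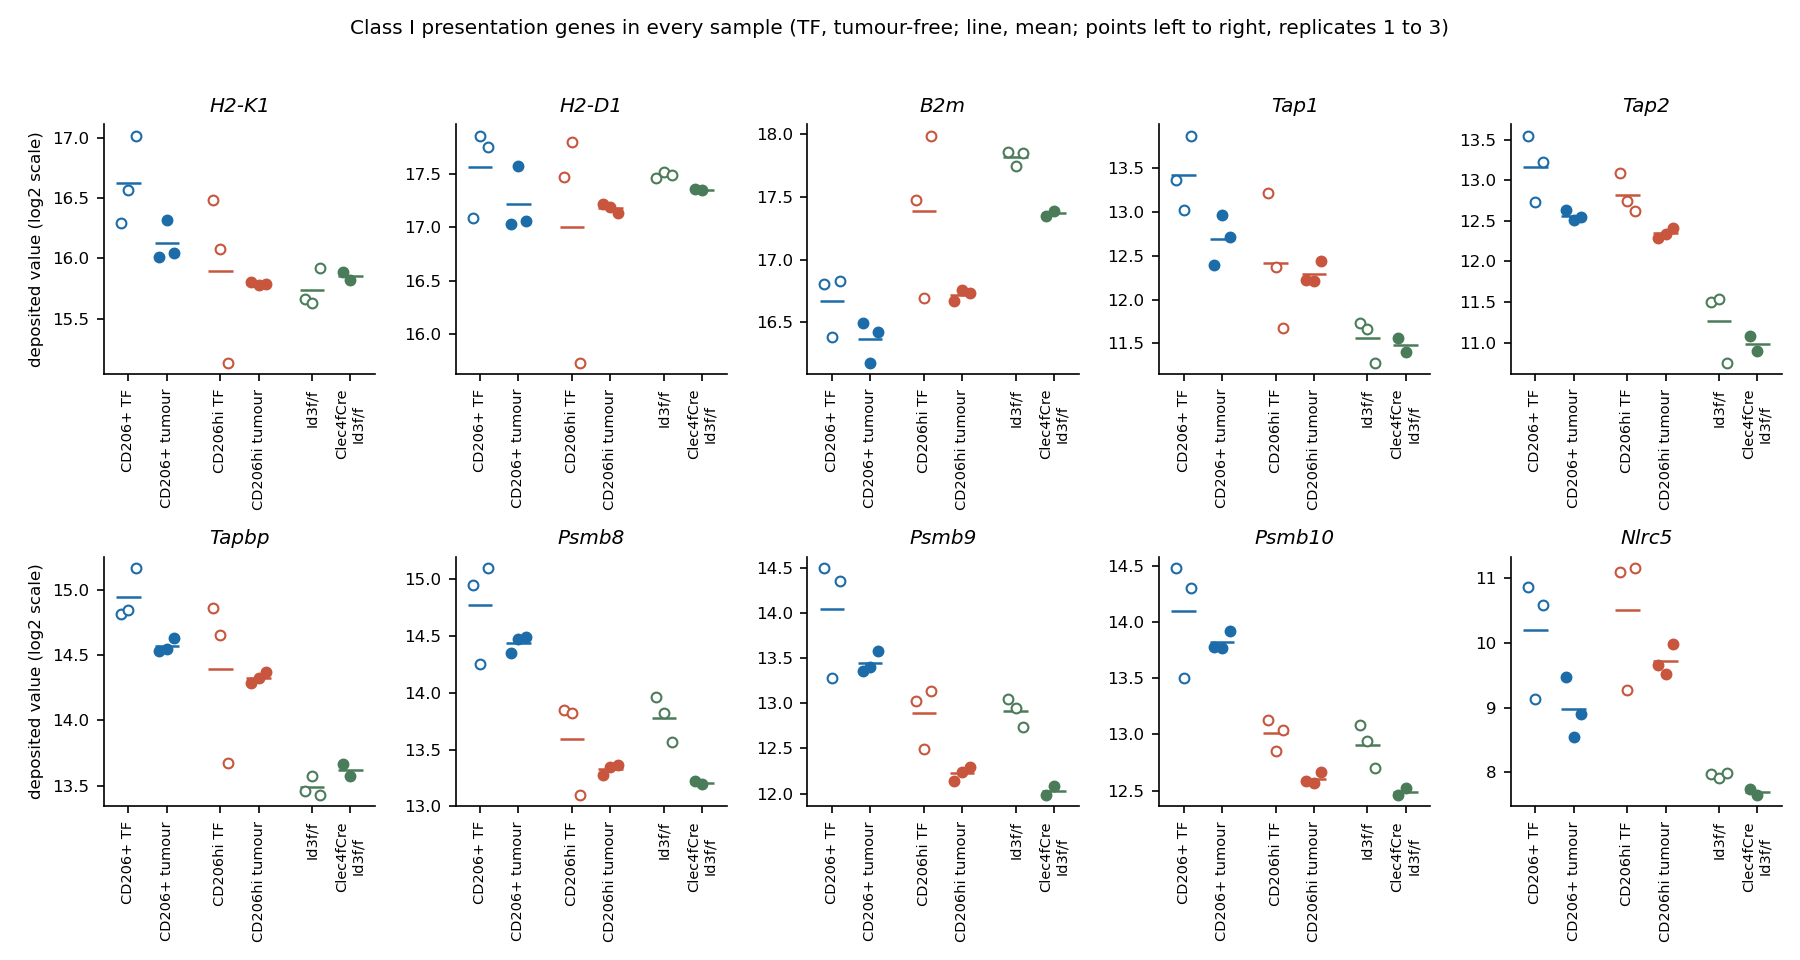
Deposited value (log2 scale) of each member in the 17 samples, with open points for tumour-free or *Id3f/f* samples, filled points for tumour-bearing or *Clec4fCreId3f/f* samples and a line at the group mean, where tables were transformed separately. In *Psmb8*, *Psmb9*, *Psmb10* and *Nlrc5* the second tumour-free TIM4+CD206+ sample lies within or below the tumour-bearing samples, and in *H2-D1* the third tumour-free TIM4+CD206hi sample is lowest at 15.74.

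In TIM4+CD206hi KCs, 9 of 10 members had a lower mean with tumour and none passed an adjusted p of 0.05 (limma, while 3 of 10 had an unadjusted p under 0.05). Of all 14561 genes tested, 7.23% passed in either direction, 2.03% as lower and 5.21% as higher, and 21.1% had an unadjusted p under 0.05. The members' median difference was −0.33, against 0.028 for all genes tested, and 47.7% of all differences were below 0. The median of the tested values themselves was 0.16 higher in tumour-bearing samples, and every difference is 0.16 lower when it is counted from that shift. For 3 members (*Tap2*, *Psmb9* and *Psmb10*) all tumour-bearing samples lay below all tumour-free ones, as they did for 15.2% of all genes, and for 15.6% they lay above.

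*Psmb9* stood at 13.03, 12.50 and 13.14 in tumour-free and at 12.14, 12.24 and 12.29 in tumour-bearing livers, a difference of −0.66 ± 0.20 (SE, adjusted p = 0.11). *Psmb10* stood at 13.13, 12.85 and 13.04 and 12.59, 12.57 and 12.66 (−0.40 ± 0.15 (SE, adjusted p = 0.179)), and *Psmb8* at 13.85, 13.82 and 13.10 and 13.27, 13.35 and 13.36 (−0.26 ± 0.23 (SE, adjusted p = 0.526)). The third tumour-free sample was lowest of all for *Psmb8* and highest for *Psmb9*. *Tap2* stood at 13.09, 12.74 and 12.62 and 12.29, 12.34 and 12.41, a difference of −0.47 ± 0.17 (SE, adjusted p = 0.176).

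The heavy chains, *Tap1* and *Tapbp* had the third tumour-free sample at the bottom. *H2-D1* values were 17.47, 17.80 and 15.74 without and 17.21, 17.19 and 17.13 with tumour, a difference of 0.17 with a 95% interval of −1.01 to 1.35 (adjusted p = 0.856). This was the single positive difference among the members, and without the third tumour-free sample it was −0.46. *H2-K1* values were 16.48, 16.08 and 15.14 and 15.80, 15.78 and 15.79 (difference −0.11 ± 0.33 (SE, adjusted p = 0.864)), and the tumour-bearing samples differed from each other by less than 0.02. *Tapbp* stood at 14.86, 14.66 and 13.67 and 14.29, 14.32 and 14.37, and *Tap1* at 13.22, 12.37 and 11.67 and 12.22, 12.21 and 12.45. The differences of *Tapbp* and *Tap1*, −0.07 and −0.13, were far smaller than the spread of the tumour-free samples, and quantile normalization turned those of *H2-K1* and *Tapbp* positive (0.082 and 0.041).

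*B2m*, in contrast, was highest in the third sample. It stood at 17.48, 16.69 and 17.99 in tumour-free and at 16.67, 16.76 and 16.74 in tumour-bearing livers, a difference of −0.66 ± 0.32 (SE, adjusted p = 0.288), or −0.83 when counted from the median shift. *Nlrc5* stood at 11.09, 9.28 and 11.15 and 9.65, 9.53 and 9.99 (−0.79 ± 0.49 (SE, adjusted p = 0.395)), and *Erap1* at 12.24, 11.63 and 12.80 and 11.75, 11.61 and 11.69 (−0.54 ± 0.29 (SE, adjusted p = 0.326)). In these genes the second tumour-free sample was close to or below the tumour-bearing ones, while the other tumour-free samples were above them.

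Calls again depended on single samples. Without the second tumour-free sample 4 members were lower at an adjusted p under 0.05 (*B2m*, *Nlrc5*, *Psmb9* and *Psmb10*), with *B2m* at −1.01 (adjusted p = 0.0172), and 3653 genes passed in all. Without the third, *Psmb8* passed. Over the fits that left out 1 sample, 579 to 3653 of all genes passed. The summed endothelial markers were 143000 to 219000 in tumour-free and 89400 to 108000 in tumour-bearing samples, lowest among the former in the second, and the monocyte sum went from 14700 to 20200 to 28600 to 30900. Their part in the members' values was not tested. Whether the members' differences were unlike in the KC populations was not tested, since the tables were transformed separately. In both populations *Tap2* had every tumour-bearing sample below every tumour-free one. The share of all genes that did so in both was not counted.

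**Figure D3:**
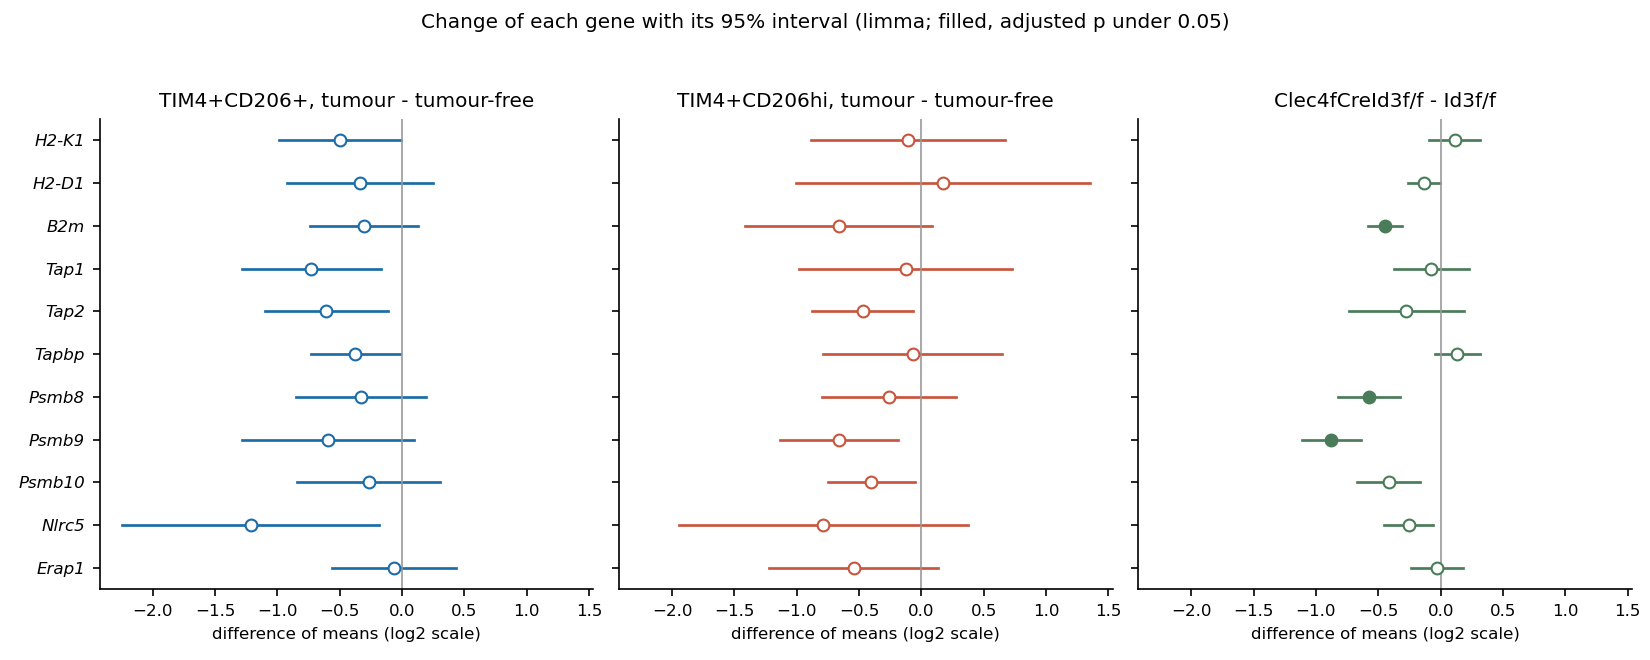
Difference of group means on the log2 scale (horizontal axis, shared by the panels) with its 95% interval from limma for the 10 members and *Erap1*, in the TIM4+CD206+ table, the TIM4+CD206hi table and the *Id3* table, with filled points for an adjusted p under 0.05. Filled points appear in the *Id3* panel alone, for *B2m*, *Psmb8* and *Psmb9*.

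In *Clec4fCreId3f/f* KCs, 3 members were lower than in *Id3f/f* KCs and none was higher at an adjusted p under 0.05 (limma, 12833 genes tested). Of all genes tested, 6.44% passed, 3.37% as lower and 3.08% as higher. Negative differences were found in 8 of 10 members and in 49.6% of all genes, and an unadjusted p under 0.05 in 6 of 10 and in 23.6%. The members that passed were the immunoproteasome subunits *Psmb9* and *Psmb8* and the light chain *B2m*. The median difference of the 10 members was −0.27, against 0.0014 for all genes. In 6 members both *Clec4fCreId3f/f* samples lay below all *Id3f/f* samples, and in 1 member, *Tapbp*, above them, as they did for 21.7% and 20.2% of all genes.

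*Psmb9* fell most. It stood at 13.05, 12.94 and 12.73 in *Id3f/f* and at 11.98 and 12.08 in *Clec4fCreId3f/f* KCs, a difference of −0.88 ± 0.10 (SE, adjusted p = 0.00305), which is 1.84-fold lower. *Psmb8* stood at 13.96, 13.82 and 13.56 and 13.22 and 13.19, a difference of −0.57 ± 0.11 (SE, adjusted p = 0.02). *Psmb10*, which lies outside the MHC region, stood at 13.09, 12.94 and 12.70 and 12.46 and 12.52, and its difference of −0.42 ± 0.11 (SE, adjusted p = 0.0584) missed the threshold. In all 3 immunoproteasome subunits the third *Id3f/f* sample was the lowest control but lay above both *Clec4fCreId3f/f* samples.

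Of the subunits of the presented molecule, *B2m* passed. *B2m* stood at 17.86, 17.74 and 17.85 and 17.35 and 17.39, a difference of −0.45 ± 0.06 (SE, adjusted p = 0.00551) or 1.36-fold lower, and the samples of each genotype were within 0.12 of each other. *H2-D1* values were 17.46, 17.51 and 17.49 and 17.36 and 17.34 (−0.14 ± 0.06 (SE, adjusted p = 0.186)), and quantile normalization turned the sign (0.069). *H2-K1* values were 15.67, 15.63 and 15.92 and 15.89 and 15.82 (0.11 ± 0.09 (SE, adjusted p = 0.521)), with the third *Id3f/f* sample above the others.

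The transporter, tapasin and the transactivator did not pass. *Tap1* values were 11.74, 11.66 and 11.28 and 11.56 and 11.40, a difference of −0.08 with a 95% interval of −0.38 to 0.23. *Tap2* values were 11.50, 11.53 and 10.75 and 11.08 and 10.89, a difference of −0.27 with an interval of −0.73 to 0.19, and the third *Id3f/f* sample was the lowest of all 5. *Tapbp* values were 13.46, 13.57 and 13.43 and 13.67 and 13.58, the latter higher by 0.13 (adjusted p = 0.371). *Nlrc5* values were 7.98, 7.91 and 7.99 and 7.75 and 7.65, a difference of −0.26 ± 0.09 (SE, adjusted p = 0.113). The *Tap1* and *Psmb9* genes, which share the intervening sequence printed above, thus had differences of −0.08 and −0.88.

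Genes within and outside the MHC region were set side by side. Within it, 2 of 7 members were lower at an adjusted p under 0.05, with a median difference of −0.14 and a range from −0.88 to 0.13. Outside it, 1 of 4 genes passed (*B2m*, with *Psmb10*, *Nlrc5* and *Erap1* not passing), with a median of −0.34 and a range from −0.45 to −0.03. *Erap1* values were 10.56, 10.57 and 10.40 and 10.51 and 10.45 (−0.03 ± 0.09 (SE, adjusted p = 0.877)). *Tap1*, *H2-K1*, *H2-D1* and *Tapbp* of the region and *Erap1* outside it had differences within 0.14 of 0.

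Of all 130 tested genes of the MHC region, 19 passed (14.6%), and each was lower in *Clec4fCreId3f/f* KCs, while 6.36% of the genes elsewhere passed. Without the third *Id3f/f* sample 41 genes of the region passed, without the first or the second 6 and 7, and without either *Clec4fCreId3f/f* sample 1. In the tumour comparisons the share in the region was 3.76% against 3.54% elsewhere for TIM4+CD206+ and 6.43% against 7.24% for TIM4+CD206hi KCs. The *Id3f/f* samples differed among themselves in this region. In the third of them, 11.5% of the region's genes stood more than 0.5 away from the mean of the other *Id3f/f* samples, against 1.72% of genes elsewhere. For the first and second these shares were 3.08% and 3.85% in the region and 0.291% and 0.37% elsewhere. *H2-T3*, a class I-like gene, stood at 8.29, 8.26 and 7.25 in *Id3f/f* and at 6.69 and 6.70 in *Clec4fCreId3f/f* KCs, and *H2-Q4* at 10.34, 10.37 and 9.44 and 9.04 and 9.02, so that the third *Id3f/f* sample lay between the others and the *Clec4fCreId3f/f* samples. Whether the mice differ in the inherited sequence of this region was not tested. Such a difference cannot be told apart from the loss of *Id3* here, also for *Psmb8* and *Psmb9*.

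Without the third *Id3f/f* sample, 7 members passed (*B2m*, *Psmb8*, *Psmb9*, *Psmb10*, *Tap2* and *H2-D1* lower, *H2-K1* higher by 0.20) and 1850 genes in all. Without the first or second *Id3f/f* sample *B2m* and *Psmb9* passed and *Psmb8* did not (adjusted p = 0.0716 and 0.0674), and without either *Clec4fCreId3f/f* sample 0 members and 17 or 19 genes passed. The count of all genes that passed without the first or second *Id3f/f* sample is not given here. The summed monocyte markers were 11800 to 14200 in *Id3f/f* and 6530 to 7120 in *Clec4fCreId3f/f* samples. Of the 4 monocyte markers tested, 1 was lower at an adjusted p under 0.05 (limma). The part of these markers in the members' values was not tested. *Ly6g* and *Cldn4*, markers of neutrophils and of tumour epithelium, were near 0 in this table.

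**Figure D4:**
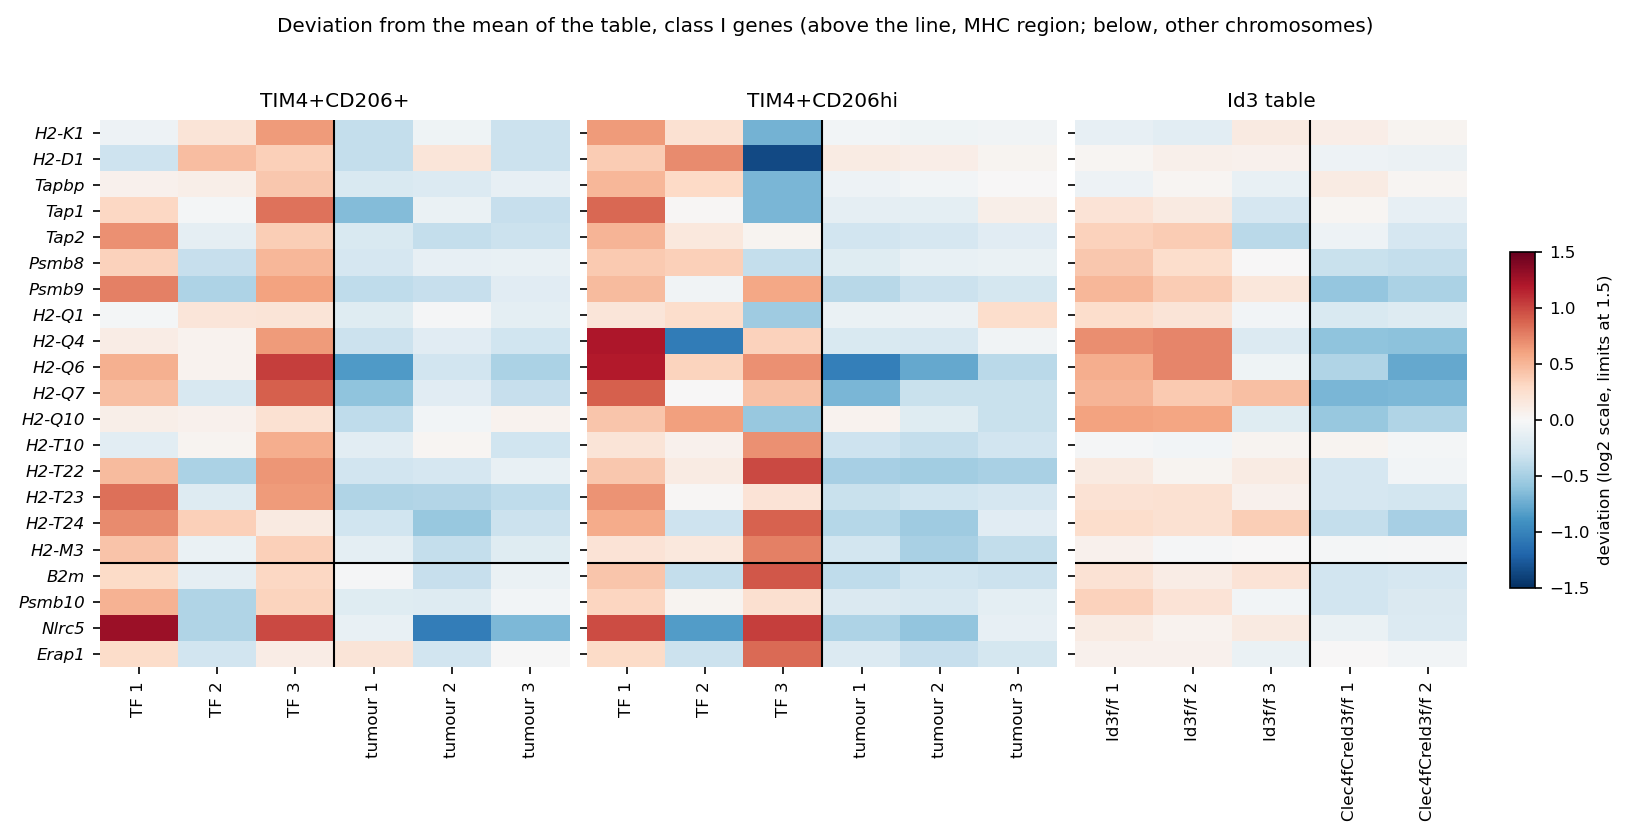
Deviation of each sample from the mean of its table (colour, log2 scale, limited at 1.5) for class I genes of the MHC region (above the horizontal line) and of other chromosomes (below it), where the vertical line separates tumour-free (TF) from tumour-bearing or *Id3f/f* from *Clec4fCreId3f/f* samples. The third *Id3f/f* sample is blue in *Tap2*, *H2-Q4* and *H2-Q10* and pale red in *H2-K1*, and the third tumour-free TIM4+CD206hi sample is blue in *H2-D1* and red in *B2m*.

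The rest of the pathway was followed in 7 lists of 82 genes, chosen with earlier results of these data known. Among other class I heavy chains and class I-like genes, 1 of 15 passed in TIM4+CD206+ and 2 of 15 in TIM4+CD206hi KCs, all lower. With tumour, 13 of 15 tested genes of this list had lower means in TIM4+CD206+ KCs (median −0.44) and 14 of 15 in TIM4+CD206hi KCs (median −0.60). *Cd1d1*, which encodes a lipid-presenting molecule, passed in TIM4+CD206+ KCs, with 12.03, 11.99 and 12.04 in tumour-free and 11.10, 11.16 and 10.92 in tumour-bearing livers (−0.96 ± 0.15 (SE, adjusted p = 0.012)). In TIM4+CD206hi KCs *H2-Q6* (−1.47 ± 0.27 (SE, adjusted p = 0.0176)) and *H2-T22* (−1.01 ± 0.23 (SE, adjusted p = 0.0462)) passed. Both share stretches with other class I genes, as given above. With all samples kept, *H2-T22* missed the threshold under 4 of 6 alternatives (adjusted p up to 0.0637) and *H2-Q6* under 0 of 6.

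In the *Id3* table, 7 of 18 genes of this list were lower at an adjusted p under 0.05. *H2-Q7*, a Qa-2 gene, had the lowest adjusted p, with 11.86, 11.75 and 11.81 in *Id3f/f* and 10.66 and 10.68 in *Clec4fCreId3f/f* KCs (−1.13 ± 0.09 (SE, adjusted p = 0.000232)). *H2-T24* stood at 9.68, 9.64 and 9.78 and 9.05 and 8.91 (−0.72 ± 0.10 (SE, adjusted p = 0.00489)). For both, the third *Id3f/f* sample was within 0.14 of the other *Id3f/f* samples. The differences of *H2-T3*, *H2-Q4*, *H2-Q6* and *H2-Q10* were −1.24, −1.02, −1.01 and −0.85. In these 4 genes the third sample was the lowest control. With all samples kept, each of the 4 also missed the threshold under an alternative. Without the mean-variance trend the adjusted p was 0.0771 for *H2-T3*, 0.094 for *H2-Q4*, 0.0658 for *H2-Q6* and 0.0989 for *H2-Q10*.

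Of the genes that load and trim peptides, few passed. In TIM4+CD206+ KCs 0 of 8 passed (1 with an unadjusted p under 0.05), and *Calr*, a chaperone of loading, differed by −0.31 and *Hspa5* by −0.14. In TIM4+CD206hi KCs *Tapbpl*, a relative of tapasin, was lower, with 12.01, 11.62 and 11.93 in tumour-free and 11.17, 11.18 and 11.07 in tumour-bearing livers (−0.71 ± 0.16 (SE, adjusted p = 0.0464)), but it missed the threshold under 6 of 6 alternatives that kept all samples (adjusted p up to 0.138). *Sec61a1*, a subunit of the endoplasmic reticulum translocon, was higher in *Id3*-deficient KCs by 0.37 ± 0.09 (adjusted p = 0.0361, and 0.0596 with no filter).

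The standard catalytic subunits and the other subunits of the 20S core were looked at next. In TIM4+CD206+ KCs the 3 standard catalytic subunits had positive differences, with 0.34 for *Psmb5* and 0.27 for *Psmb6*, and 10 of 11 other 20S subunits did too, with a median of 0.13. None of the 14 passed (limma, 0 with an unadjusted p under 0.05), and without the second tumour-free sample *Psma7* turned from 0.083 to −0.17, while *Psmb5* stood at 0.11 and *Psmb6* at 0.040 without that sample. In TIM4+CD206hi KCs 10 of 11 other 20S subunits had negative differences, again with 0 passing (1 with an unadjusted p under 0.05). *Psma6* differed by 0.13 in TIM4+CD206+ and by −0.26 in TIM4+CD206hi KCs. In the *Id3* table all 11 had negative differences (median −0.28), and *Psma1* (−0.42 ± 0.08 (SE, adjusted p = 0.0235)) and *Psmb2* (−0.37 ± 0.09 (SE, adjusted p = 0.0397)) passed, the latter in 3 of 6 alternatives that kept all samples. Of the 3 standard catalytic subunits, 2 had negative differences in TIM4+CD206hi KCs and 3 in the *Id3* table (medians −0.20 and −0.27), with 0 passing (limma, 0 and 2 with an unadjusted p under 0.05). The proteasome activator genes *Psme1* and *Psme2* differed by −0.26 and −0.11 in TIM4+CD206+, by −0.46 and −0.54 in TIM4+CD206hi and by −0.25 and −0.45 in *Id3*-deficient KCs, with 0 of 6 genes of that list passing in any table (0, 2 and 4 with an unadjusted p under 0.05). Of the *Psme2* stretches of 100 bases, 44.5% also occur in *Psme2b*.

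Of 16 regulators of these genes, 1 passed in TIM4+CD206+, 1 in TIM4+CD206hi and 3 in *Id3*-deficient KCs, each of them lower. *Stat2* was lower with tumour in TIM4+CD206+ KCs, at 12.28, 12.21 and 12.25 against 11.39, 11.45 and 11.22 (−0.89 ± 0.15 (SE, adjusted p = 0.0157)), and *Irf2* in TIM4+CD206hi KCs (−0.74 ± 0.16 (SE, adjusted p = 0.035)), where the call was lost without the trend and with the block (adjusted p up to 0.105). In *Id3*-deficient KCs *Irf1*, a factor that binds class I promoters, was lower, at 12.98, 13.11 and 12.88 against 12.55 and 12.38 (−0.53 ± 0.10 (SE, adjusted p = 0.0167)). *Socs1*, an inhibitor of cytokine signals, differed by −0.48 (adjusted p = 0.0237).

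Of the 20 interferon-stimulated genes, 4 passed in TIM4+CD206+, 5 in TIM4+CD206hi and 13 in *Id3*-deficient KCs, all of them lower, with median differences of −0.82, −0.93 and −0.59. *Cxcl10*, a chemokine for T cells, passed in each, at 10.39, 9.53 and 10.20 against 8.45, 8.40 and 8.62 in TIM4+CD206+, 12.42, 10.70 and 12.61 against 9.36, 9.77 and 10.00 in TIM4+CD206hi and 10.12, 10.15 and 9.85 against 9.04 and 9.10 in the *Id3* table. Its differences were −1.55 ± 0.26 (SE, adjusted p = 0.0158), −2.20 ± 0.50 (SE, adjusted p = 0.0425) and −0.97 ± 0.11 (SE, adjusted p = 0.00266). In TIM4+CD206hi KCs the *Cxcl10* call was lost with no filter and with the stricter filter (adjusted p up to 0.0592). *Ifit3* passed in each as well, with −1.17, −1.35 and −0.83. In TIM4+CD206+ KCs *Igtp* (−1.15) and *Oasl2* (−1.08) also passed, each losing the call under 2 of 6 alternatives that kept all samples. In TIM4+CD206hi KCs *Cxcl9*, *Irf7* and *Usp18* also passed. *Cxcl9* had the largest difference of the list there (−2.65) and lost its call under 0 of 6 such alternatives (limma, adjusted p up to 0.0369). *Irf7* lost it under 5 of 6 and *Usp18* under 4 of 6. In the *Id3* table *Oasl2* (−0.97), *Bst2* (−0.83), *Irgm1* (−0.78) and *Isg15* (−0.77) were among those that passed. Over the 7 lists, 6 of 79, 9 of 79 and 26 of 82 tested genes passed, and the single one that was higher was *Sec61a1*. With the replicate block 18 passed in TIM4+CD206+ KCs. Without the second tumour-free sample the counts were 25 in TIM4+CD206+ and 40 in TIM4+CD206hi KCs, while leaving out other samples gave 0 to 2 and 0 to 12. With the *Id3* genotypes the count was 47 without the third *Id3f/f* sample, 12 and 13 without the first or the second, and 1 without either *Clec4fCreId3f/f* sample.

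**Figure D5:**
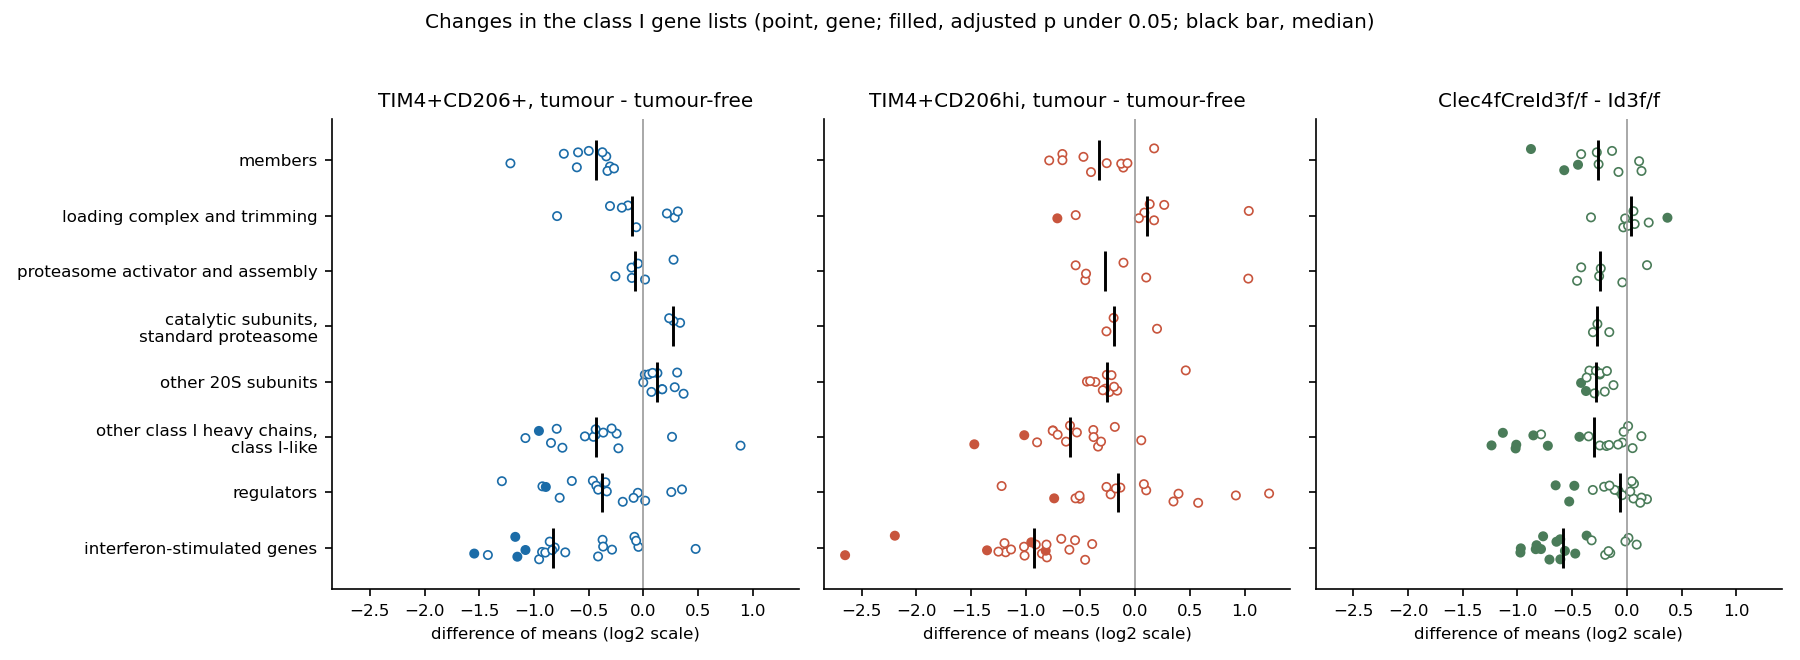
Difference of group means (log2 scale, shared axis) of each tested gene in the members and the 7 lists, per comparison, where filled points have an adjusted p under 0.05 and the black bar is the list's median. The interferon-stimulated genes have medians of −0.82, −0.93 and −0.59, and the other 20S subunits lie between −0.44 and 0.46.

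Over the 12 samples of the tumour comparisons, with each gene centred on its mean in each table, the members followed their common mean to different degrees. Pearson's r with that mean, which includes the gene itself, was 0.93 for *Tap2*, 0.87 for *Tap1* and 0.86 for *Psmb8*, and it was 0.50 for *B2m* and 0.26 for *H2-D1*. Among 13100 other genes, those with the highest r were *Irf1* (0.97), *Il12rb1* (0.96), *9930012K11Rik* (0.96), *Hk3* (0.95) and *H2-T23* (0.95). These samples share their tumour groups and tables, and the values are descriptions. *Irf1* stood at 14.61, 13.97 and 14.65 in tumour-free and 13.45, 13.46 and 13.54 in tumour-bearing TIM4+CD206+ KCs, where its adjusted p was 0.0502. *H2-T23*, which encodes the Qa-1 heavy chain, a ligand of NK cell receptors, stood at 15.93, 14.92 and 15.75 and 14.66, 14.68 and 14.73 (−0.84 ± 0.26 (SE, adjusted p = 0.131)). In the *Id3* table *H2-T23* was lower at 14.12 and 14.10 against 14.59, 14.60 and 14.44 (−0.43 ± 0.08 (SE, adjusted p = 0.0164)).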

How the data were processed

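RNA of sorted mouse KCs was sequenced in 17 samples. Per the labels, RNA was amplified with a SMART-Seq v4 kit, and the submitters' processing notes name STAR 2.7.10a, HTSeq, DESeq2 and mm10, which is GRCm38. The authors deposited values that are named as counts and TPM but lie on a log2 scale and look like regularized log values, transformed per table. The read depth cannot be taken from them, and their number of replicates limits the precision. A gene entered the test with values of log2 of 10 (3.32) or more in 3 samples, or in 2 for the *Id3* table. The test was limma 3.58.1 (R 4.3.3) with its trend option, no block and Benjamini-Hochberg adjustment over all genes, called at 0.05. A count test was planned only for the case that the values were counts. The fits were tested on simulated data. Python 3.11.15, pandas 2.3.3, numpy 2.4.6 and matplotlib 3.10.9 made tables and figures. Levels per kb are linear values divided by the length of the longest coding transcript of GENCODE M21, and 24494 of 25124 symbols were matched to it.

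The members and lists were chosen with earlier results of these data known. All members and *Erap1* are named, and of each list up to 6 called genes per comparison or, with none called, the 2 of the highest mean, with the 5 genes most like the members' mean. *Id3*, *Clec4f*, *Timd4*, *Xist*, *Ddx3y*, *H2-K2*, *H2-L* and *H2-Q9* were named after their values were seen. The values of 1 called regulator are not reported here. Samples with the same number deviated together in TIM4+CD206+ KCs (r = 0.35, 0.56 and 0.15 across genes) and not in TIM4+CD206hi KCs (−0.05, −0.13 and −0.05) or the *Id3* table (−0.07 and −0.10). The alternatives were other filters, the replicate block, no trend, median centring, quantile normalization and each sample left out. Marker sums are sums of linear values.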

Additional observations from a re-analysis of the deposited data

How the results depend on the processing

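Leaving out 1 sample in turn moved the number of members that passed between 0 and 6 in TIM4+CD206+ KCs, between 0 and 4 in TIM4+CD206hi KCs and between 0 and 7 in the *Id3* table, where 1 *Clec4fCreId3f/f* sample left alone is assumed to vary like the others. The list genes that passed ranged from 0 to 25, from 0 to 40 and from 1 to 47, and the genes of the MHC region in the *Id3* table from 1 to 41. In the TIM4+CD206hi table, 4 list genes passed instead of 9 with no filter, with the stricter filter and with no trend. In the *Id3* table, no trend gave 12 genes of the MHC region instead of 19, and the stricter filter gave 26. Of the called genes examined one by one, 2 of 6 in TIM4+CD206+, 6 of 9 in TIM4+CD206hi and 7 of 21 in *Id3*-deficient KCs missed the threshold under at least 1 alternative that kept all samples. The cause of these differences was not tested. With the replicate block, 1 member and 18 list genes passed in TIM4+CD206+ KCs, where samples of the same number deviated together. With the *Id3* genotypes, samples of the same number did not deviate together. The block there, which leaves the third *Id3f/f* sample without a partner, gave 6 members, 49 list genes and 46 of the region, with 2089 genes in all. It gave 6 list genes and 0 members in TIM4+CD206hi KCs.

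Signs turned for differences near 0. With samples left out, the TIM4+CD206+ values ranged from −0.22 to 0.061 for *Erap1*, from −0.26 to 0.026 for *Hspa5*, from −0.43 to 0.11 for *Psme2* and from −0.17 to 0.21 for *Psma7*. The TIM4+CD206hi values ranged from −0.49 to 0.18 for *H2-K1*, from −0.50 to 0.27 for *Tap1*, from −0.43 to 0.16 for *Tapbp* and from −0.46 to 0.57 for *H2-D1*, and *Tap1* ranged from −0.22 to 0.012 with the *Id3* genotypes. Quantile normalization gave 0.082 for *H2-K1* and 0.041 for *Tapbp* in TIM4+CD206hi KCs and 0.069 for *H2-D1* with the *Id3* genotypes. Median centring made *Psmb10* pass there (−0.45, adjusted p = 0.0465), as did the stricter filter. *B2m*, *Psmb8* and *Psmb9* passed there in all alternatives that kept every sample.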

Other observations

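*H2-T3* was listed at 0 in all 6 TIM4+CD206+ samples and at 0.33 to 0.48 in the TIM4+CD206hi samples, and at 6.69 to 8.29 in the 5 samples of the *Id3* table. *H2-K2*, a neighbour of *H2-K1*, stood at 9.89, 9.85 and 9.52 in *Id3f/f* and at 8.79 and 8.81 in *Clec4fCreId3f/f* KCs. The tables were transformed separately, and these levels were not tested against each other.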
